A study of Mus musculus with 20 samples.

Results

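Brown adipose tissue (BAT) oxidises fuel to release heat, and its mRNA was examined here for the genes that make cholesterol, sense it inside the cell, export it and store it. The set was fixed by name and held 27 genes, each matched to 1 of the 55471 gene IDs in the count tables. There were 8 enzymes that build squalene from acetyl-CoA, 10 that turn squalene into cholesterol, 5 genes of sterol sensing and transport, and 4 of efflux, lipoprotein receptor degradation and esterification. The measurement was stranded sequencing of poly(A) mRNA from mouse BAT. The groups were mice with an adipose-specific knockout of CEBPB after 4 h of cold stress (KO_cold), the same genotype at room temperature (KO_RT), wild type mice after the same cold stress (WT_cold) and wild type mice at room temperature (WT_RT), with 5 libraries in each group and 20 in all. CEBPB is C/EBP beta, a transcription factor of adipocyte differentiation. The Cre driver and the age of the mice are not given in the sources used here. Whether the libraries of a group came from separate animals is not said in the labels, and a p-value here therefore reflects library-to-library spread that may be technical.

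Cells make cholesterol from acetyl-CoA through mevalonate and the isoprenoid units that condense to squalene, which is then oxidised, closed into a ring system and trimmed to cholesterol. When the endoplasmic reticulum is low in sterol, SCAP escorts the SREBP transcription factors to the Golgi for cleavage, and they raise the genes of this pathway. When sterol is plentiful, INSIG proteins hold SCAP back. Oxysterols that build up with excess cholesterol activate LXR, which raises the efflux pumps Abca1 and Abcg1 and the ubiquitin ligase Mylip. In adipose tissue, which holds much free cholesterol on the lipid droplet and plasma membrane, efflux through Abca1 is an established route of release.

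Libraries held from 27.07 to 55.18 M gene counts. All 27 genes passed the expression filter, among 15233 that did. Cebpb, the targeted gene, was at 1.92 ± 0.278 CPM in KO_cold and 0.564 ± 0.253 CPM in KO_RT, against 144 ± 22.4 CPM in WT_cold and 104 ± 19.9 CPM in WT_RT (mean ± SD, n = 5 each). CPM is the gene's count scaled to the size of the library. The brown adipocyte markers, Ucp1 among them, were detected in all libraries, with a summed level of 15050 to 25970 CPM. In a principal component analysis of log2 CPM, WT_RT replicate 4 and WT_cold replicate 5 lay nearer to the middle of the first component than the other libraries of their groups. All tests below are edgeR quasi-likelihood tests of 1 fit over the 20 libraries, with p adjusted by Benjamini-Hochberg over the 15233 genes and a threshold of 0.05. Changes are log2 fold changes ± SE.

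RefSeq promoter windows, from 250 bases before to 50 bases after a gene's start in GRCm38.p6, were read for 22 of the 27 genes, in 28 windows. Those for Hmgcs1, Nsdhl, Insig1, Hsd17b7, Acat2 and Abca1 are shown because the results turn on these genes: an abundant early enzyme, an enzyme and a sterol sensor that fell in the cold, an enzyme that rose, and the 2 genes that differed with genotype. Each is given 5′ to 3′ on the gene's own strand. Capitals mark TCACNCCAC, a form of the sterol regulatory element, and CCAAT, the box that NF-Y binds, on either strand.
Hmgcs1, chr13:119690101-119690400, plus strand: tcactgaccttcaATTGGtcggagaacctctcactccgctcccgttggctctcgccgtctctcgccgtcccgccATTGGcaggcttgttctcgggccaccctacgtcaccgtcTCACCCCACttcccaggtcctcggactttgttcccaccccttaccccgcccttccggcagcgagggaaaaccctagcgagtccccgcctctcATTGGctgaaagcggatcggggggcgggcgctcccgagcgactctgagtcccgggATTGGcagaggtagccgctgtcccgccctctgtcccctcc
Nsdhl, chrX:72918271-72918570, plus strand: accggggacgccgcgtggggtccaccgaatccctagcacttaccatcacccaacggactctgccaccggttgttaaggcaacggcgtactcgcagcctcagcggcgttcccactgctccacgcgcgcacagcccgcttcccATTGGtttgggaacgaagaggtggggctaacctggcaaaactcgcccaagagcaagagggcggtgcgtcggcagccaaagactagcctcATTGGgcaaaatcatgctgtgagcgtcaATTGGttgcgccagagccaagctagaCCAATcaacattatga
Insig1, chr5:28071162-28071461, plus strand: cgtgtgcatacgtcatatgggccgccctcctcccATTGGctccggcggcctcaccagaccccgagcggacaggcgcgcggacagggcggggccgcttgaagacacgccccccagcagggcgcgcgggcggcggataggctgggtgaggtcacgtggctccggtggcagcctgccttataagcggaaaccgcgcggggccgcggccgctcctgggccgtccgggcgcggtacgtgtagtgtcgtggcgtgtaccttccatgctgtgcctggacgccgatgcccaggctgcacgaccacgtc
Hsd17b7, chr1:169969156-169969455, minus strand: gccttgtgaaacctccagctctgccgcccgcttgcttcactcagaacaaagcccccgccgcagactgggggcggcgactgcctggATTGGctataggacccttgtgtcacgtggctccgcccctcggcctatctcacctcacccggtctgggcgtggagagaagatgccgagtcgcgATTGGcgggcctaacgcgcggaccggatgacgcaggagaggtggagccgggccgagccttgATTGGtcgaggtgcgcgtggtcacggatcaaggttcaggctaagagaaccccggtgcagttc
Acat2, chr17:12960676-12960975, minus strand: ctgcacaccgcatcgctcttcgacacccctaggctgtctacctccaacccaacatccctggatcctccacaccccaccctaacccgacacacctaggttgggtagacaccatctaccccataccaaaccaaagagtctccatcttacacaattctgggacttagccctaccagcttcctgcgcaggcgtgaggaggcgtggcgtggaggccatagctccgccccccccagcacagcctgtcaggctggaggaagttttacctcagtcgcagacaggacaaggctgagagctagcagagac
Abca1, chr4:53159846-53160145, minus strand: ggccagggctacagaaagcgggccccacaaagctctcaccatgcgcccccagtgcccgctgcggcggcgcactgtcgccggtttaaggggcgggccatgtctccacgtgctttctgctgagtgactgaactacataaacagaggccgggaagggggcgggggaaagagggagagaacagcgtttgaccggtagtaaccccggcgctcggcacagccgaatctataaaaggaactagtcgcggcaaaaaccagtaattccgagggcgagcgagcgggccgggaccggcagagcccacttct

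TCACNCCAC was present in the window of 1 of the 22 genes, Hmgcs1, where its first base lay 137 bases before the start, and in 1.24% of all 32851 windows. CCAAT was present in 19 of the 28 windows (67.9%), against 37.4% of all windows, and GGGCGG, a box bound by Sp1, in 24 of the 28 (85.7%), against 35.7%. A pair of exact AGGTCA boxes in the same orientation with 4 bases between them, a strict form of the LXR element, was in none of the 28 windows. It was in only 0.0152% of all windows. Looser forms were not searched, so this absence does not show that a window, that of Abca1 included, lacks an LXR site. Both strands were read for every motif, and no match says only that these letters are not in the window. The windows of Acat2 and Abca1 held neither of the capitalised motifs.

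Cold lowered more of the cholesterol genes than it raised in both genotypes. In KO mice, 3 of the 27 genes were higher and 14 lower in cold than at RT, where 27.5% of all tested genes were higher and 31.7% lower. In WT mice, 6 were higher and 13 lower, where 26.2% of all genes were higher and 30.2% lower. The median change of the 27 genes was -0.33 in KO and -0.29 in WT, and that of all tested genes was -0.05 in both. Of the 18 enzymes, 1 rose and 11 fell in KO, and 3 rose and 8 fell in WT. WT_RT replicate 4 was the lowest library of its group for 12 of the 18 enzymes and the highest for 1. WT_cold replicate 5 was the highest of its group for 9 and the lowest for 2. In KO_RT, replicate 5 was the lowest for 9 and replicate 2 the highest for 10. Acat2, Mvk, Mvd, Fdft1, Nsdhl, Ebp, Sc5d, Dhcr7, Insig1 and Abca1 fell in both genotypes, and Hsd17b7, Srebf2 and Insig2 rose in both. How many of all tested genes fell or rose in both was not counted, so this agreement cannot be called particular to the set. No gene passed the test in opposite directions. In bulk tissue, fewer cells of a type and less RNA per cell cannot be told apart.

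**Figure D1:**
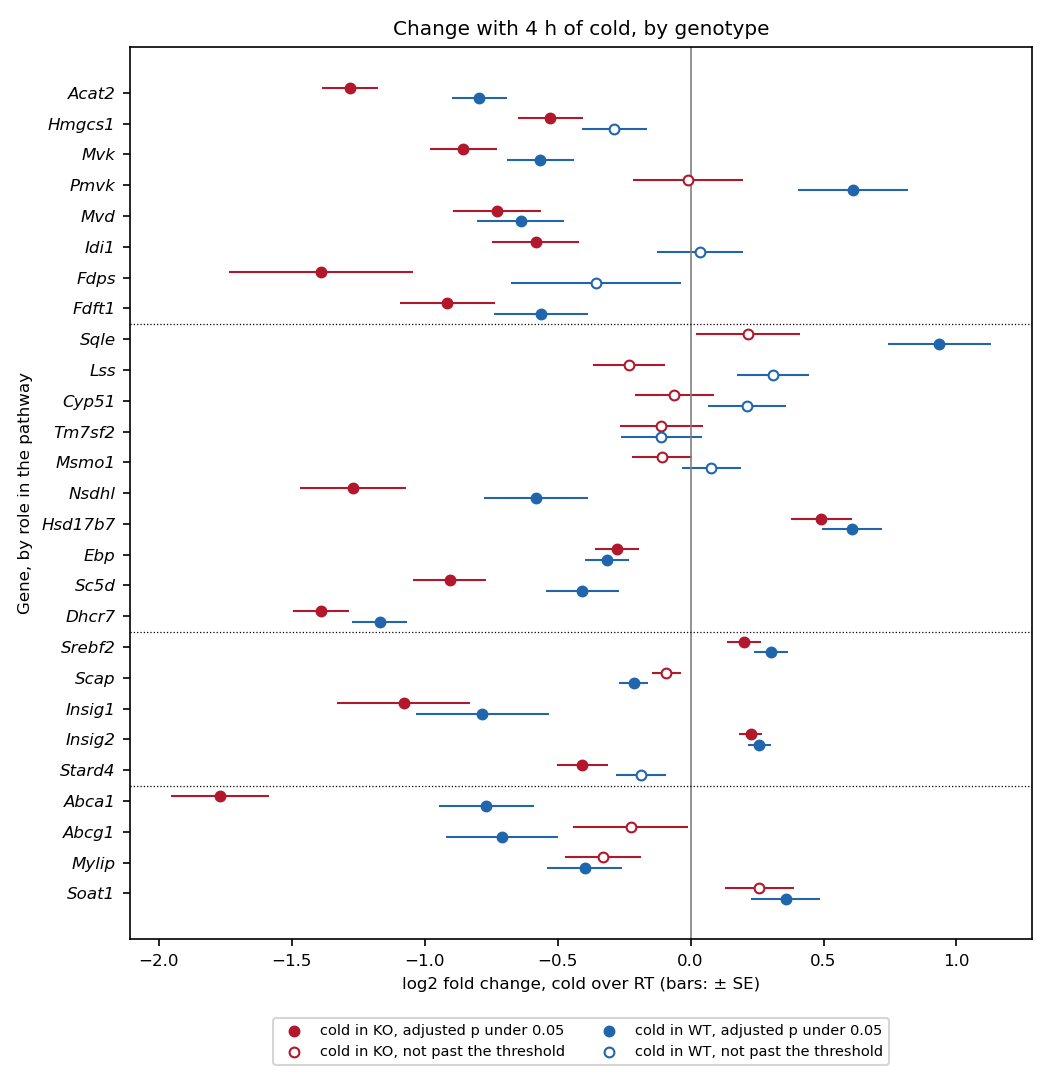
Log2 fold change of each of the 27 genes, cold over RT, in KO and in WT mice, with bars of ± SE; filled points passed an adjusted p of 0.05. Dhcr7, Acat2, Nsdhl and Abca1 lie left of 0 in both genotypes, and Hsd17b7, Srebf2 and Insig2 lie right of 0 in both.

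**Figure D2:**
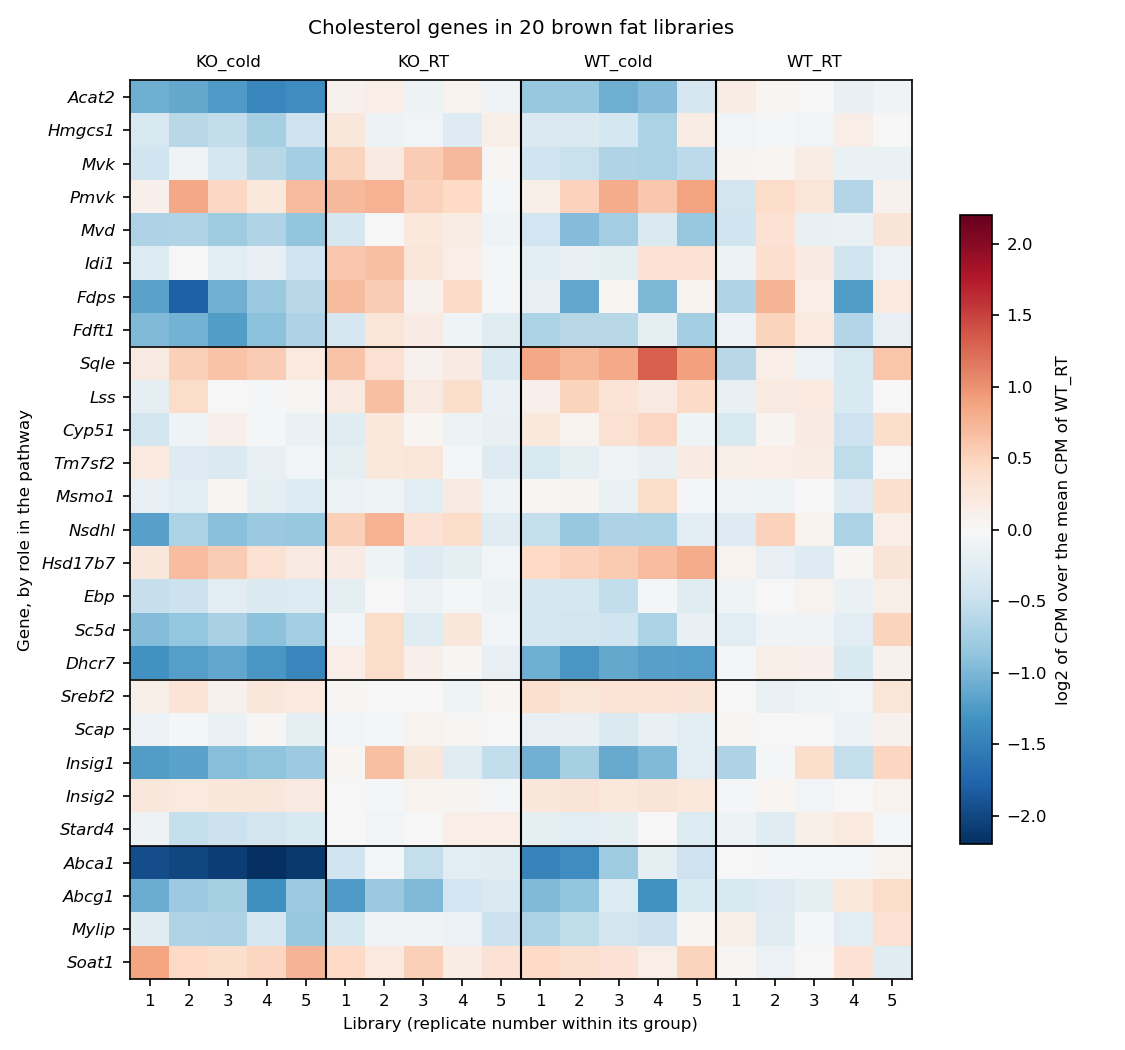
Level of each of the 27 genes in each of the 20 libraries, as the log2 of its CPM over the gene's mean CPM in WT_RT, with groups side by side and genes ordered by role; blue is lower and red higher than that mean. Acat2, Dhcr7, Insig1 and Abca1 are blue in all 5 KO_cold libraries, and Hsd17b7, Srebf2 and Insig2 are red there.

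Among the enzymes up to squalene, 7 of 8 fell in the cold in KO and none rose, and 4 fell and 1 rose in WT. The shares of all tested genes were 31.7% lower and 27.5% higher in KO, and 30.2% lower and 26.2% higher in WT. Acat2, the cytosolic thiolase that joins acetyl-CoA units into acetoacetyl-CoA, lies at chr17:12942890-12960747. It had 57.99, 56.2, 51.5, 45 and 47.5 CPM in KO_cold, 131, 136, 114, 129 and 116 CPM in KO_RT, 68.4, 68.98, 58.1, 62.95 and 94.2 CPM in WT_cold and 137, 126, 123, 109.9 and 116 CPM in WT_RT. No cold library of either genotype reached the RT libraries of that genotype, and WT_cold replicate 5 was the highest of the cold libraries. The change was -1.28 ± 0.10 (adjusted p = 2.43e-09) in KO and -0.80 ± 0.10 (adjusted p = 1.3e-06) in WT. Fdps, farnesyl diphosphate synthase, had the largest estimate of this role in KO but was counted from few reads: 8, 4, 7, 10 and 12 counts in KO_cold, 36, 30, 17, 24 and 18 in KO_RT, 22, 13, 19, 9 and 24 in WT_cold, and 14, 39, 21, 9 and 25 in WT_RT. KO_cold and KO_RT did not overlap, and WT_cold and WT_RT did. Its change was -1.39 ± 0.35 (adjusted p = 0.00155) in KO and -0.35 ± 0.32 (adjusted p = 0.362) in WT. Fdps shares 1124 bp of exon with Gm43738 on the same strand, and reads that fall in both genes or at several places are in neither count, so its level and change are uncertain.

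Mevalonate is next phosphorylated and decarboxylated to the isoprenoid unit. Mvk, mevalonate kinase, changed by -0.85 ± 0.13 (adjusted p = 5.79e-06) in KO and -0.57 ± 0.13 (adjusted p = 0.000614) in WT. Mvd, which makes isopentenyl diphosphate, changed by -0.73 ± 0.17 (adjusted p = 0.000748) in KO and -0.64 ± 0.16 (adjusted p = 0.00199) in WT. Pmvk, phosphomevalonate kinase, had an estimate of -0.01 ± 0.21 (adjusted p = 0.971) in KO and was the gene of this role that rose in WT, 0.61 ± 0.21 (adjusted p = 0.018), with 36.96 ± 7.29 CPM in WT_cold and 24.2 ± 7.13 CPM in WT_RT. The Pmvk call in WT was lost without WT_RT replicate 1 (adjusted p = 0.0502). Fdft1, squalene synthase, changed by -0.92 ± 0.18 (adjusted p = 0.000247) in KO and -0.56 ± 0.18 (adjusted p = 0.0113) in WT.

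Hmgcs1, which makes the substrate for mevalonate, and Idi1, the isomerase of isopentenyl diphosphate, fell in KO, with changes of -0.53 ± 0.12 (adjusted p = 0.000884) for Hmgcs1 and -0.58 ± 0.16 (adjusted p = 0.00412) for Idi1. In WT their estimates were -0.29 ± 0.12 (adjusted p = 0.0508) for Hmgcs1 and 0.03 ± 0.16 (adjusted p = 0.874) for Idi1. Hmgcs1 in WT passed the test without WT_cold replicate 5 (-0.40, adjusted p = 0.00178), while without WT_cold replicate 4 its estimate was smaller by more than 1.5 times (-0.17, adjusted p = 0.198). The difference between genotypes in the cold change passed the test for none of these 8 enzymes. Per kilobase of exon, Hmgcs1 had the highest mean level of the 27 genes in every group, at 59.98 CPM per kb in KO_cold, 86.5 in KO_RT, 71.2 in WT_cold and 86.9 in WT_RT.

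From squalene to cholesterol, 1 of 10 enzymes rose and 4 fell in the cold in KO, and 2 rose and 4 fell in WT. The shares of all tested genes were 27.5% higher and 31.7% lower in KO, and 26.2% higher and 30.2% lower in WT. Dhcr7, the reductase that turns dehydrocholesterol into cholesterol, lies at chr7:143823145-143848410 and had 5.43, 5.88, 6.21, 5.60 and 5.07 CPM in KO_cold, 15.1, 18, 14.8, 13.9 and 12.02 CPM in KO_RT, 6.53, 5.65, 6.29, 5.998 and 5.87 CPM in WT_cold and 13.2, 14.9, 14.8, 10.8 and 14.6 CPM in WT_RT. The 10 cold libraries lay within 1 narrow band, below every RT library. The change was -1.39 ± 0.10 (adjusted p = 5.44e-10) in KO and -1.17 ± 0.10 (adjusted p = 4.55e-09) in WT. Nsdhl, a dehydrogenase that helps strip methyl groups from the sterol ring, lies at chrX:72918557-72958514 and had 9.73, 13.8, 11.8, 12.6 and 12.4 CPM in KO_cold, 32.1, 37.9, 27.6, 29.3 and 18.5 CPM in KO_RT, 15.4, 12.4, 13.8, 13.7 and 18.8 CPM in WT_cold and 18.2, 31.4, 23.3, 13.7 and 24.4 CPM in WT_RT. The KO groups did not overlap, and the WT groups did, with WT_RT replicate 4 at the level of the cold libraries. The change was -1.27 ± 0.20 (adjusted p = 2.43e-05) in KO and -0.58 ± 0.20 (adjusted p = 0.0167) in WT. The WT call was lost without WT_cold replicate 2 (adjusted p = 0.0583) and without WT_RT replicate 2 (adjusted p = 0.0627).

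Sc5d, a sterol desaturase, changed by -0.91 ± 0.14 (adjusted p = 1.29e-05) in KO and -0.41 ± 0.14 (adjusted p = 0.0155) in WT. Its WT call was lost without WT_cold replicate 4 (adjusted p = 0.0631) and without WT_RT replicate 5, which also left a smaller change, -0.23 (adjusted p = 0.0961). Ebp, the sterol isomerase, had small decreases of -0.28 ± 0.08 (adjusted p = 0.00621) in KO and -0.31 ± 0.08 (adjusted p = 0.0023) in WT. Hsd17b7, the ketosteroid reductase of demethylation, lies at chr1:169949535-169969241 and rose in both genotypes. It had 15.2, 20.6, 18.9, 16.1 and 14.8 CPM in KO_cold, 14.6, 12.1, 10.6, 11.1 and 12.3 CPM in KO_RT, 17.3, 18.2, 19.1, 20.5 and 22.8 CPM in WT_cold and 13.6, 11.3, 10.6, 13.1 and 15.7 CPM in WT_RT. Neither pair of groups overlapped, and the change was 0.49 ± 0.12 (adjusted p = 0.000862) in KO and 0.61 ± 0.11 (adjusted p = 9.61e-05) in WT.

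Sqle, squalene epoxidase, which catalyses the first oxygen-dependent step, had the largest increase of the 27 genes in WT. It had 10.98, 13.7, 14.7, 14.1 and 11.1 CPM in KO_cold, 14.8, 12.1, 10.1, 10.8 and 7.63 CPM in KO_RT, 17.1, 15.9, 16.99, 23.6 and 17.8 CPM in WT_cold and 6.27, 10.5, 8.74, 7.56 and 14.6 CPM in WT_RT. The KO groups overlapped, and all WT_cold libraries were above all WT_RT libraries. The estimate was 0.22 ± 0.20 (adjusted p = 0.361) in KO, and the change was 0.94 ± 0.19 (adjusted p = 0.000417) in WT. The difference between these 2 changes did not pass the test (-0.72 ± 0.28, adjusted p = 0.345). Lss, lanosterol synthase, Cyp51, the lanosterol demethylase, Tm7sf2, a sterol reductase, and Msmo1, the methylsterol oxidase, passed in neither genotype, with estimates between -0.23 and -0.06 in KO and between -0.11 and 0.31 in WT. Lss in WT was close to the threshold (0.31, adjusted p = 0.0557) and passed it in 19 of the 28 other settings tried. These include the leaving out of each KO library, and the settings share most of their libraries, so they are not independent. Cyp51 in WT passed without WT_RT replicate 5 (0.36, adjusted p = 0.0392). Tm7sf2 shares 532 bp of exon with Vps51 on the same strand.

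Among the genes of sterol sensing, Insig1 and Insig2, paralogous proteins that hold SCAP in the endoplasmic reticulum, moved in opposite directions. Insig1, itself a known SREBP target, lies at chr5:28071363-28078662 and had 61.99, 64.2, 76.1, 78.8 and 83.6 CPM in KO_cold, 149.6, 230.3, 173, 121 and 99.4 CPM in KO_RT, 70.1, 88.04, 67.8, 74.1 and 122 CPM in WT_cold and 91.1, 141, 190.5, 102 and 203 CPM in WT_RT. The KO groups did not overlap, and in WT the RT libraries were spread over a wide range that began within that of the cold libraries. The change was -1.08 ± 0.25 (adjusted p = 0.00122) in KO and -0.78 ± 0.25 (adjusted p = 0.0125) in WT, and the WT call was lost without WT_RT replicate 5 (adjusted p = 0.0516). Insig2 was at 44.6 ± 0.922 CPM in KO_cold and 38.1 ± 1.51 CPM in KO_RT, and at 45.3 ± 0.781 CPM in WT_cold and 37.9 ± 1.52 CPM in WT_RT. Its small change was 0.23 ± 0.04 (adjusted p = 0.000117) in KO and 0.26 ± 0.04 (adjusted p = 2.61e-05) in WT, with no overlap of the groups in either genotype.

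Srebf2, which encodes the SREBP that chiefly drives sterol synthesis, changed by 0.20 ± 0.06 (adjusted p = 0.0102) in KO and 0.30 ± 0.06 (adjusted p = 0.000369) in WT. Scap had an estimate of -0.09 ± 0.05 (adjusted p = 0.154) in KO and fell slightly in WT, -0.21 ± 0.05 (adjusted p = 0.00192). Stard4, a soluble carrier of sterol between membranes, had 8.89, 6.67, 6.88, 7.24 and 7.59 CPM in KO_cold, 9.52, 9.20, 9.66, 10.5 and 10.6 CPM in KO_RT, 8.30, 8.12, 8.26, 9.55 and 7.75 CPM in WT_cold and 8.86, 7.94, 10.4, 11.1 and 9.42 CPM in WT_RT. All KO_cold libraries were below all KO_RT libraries, and the WT groups overlapped. The change was -0.41 ± 0.10 (adjusted p = 0.000941) in KO and -0.19 ± 0.09 (adjusted p = 0.0967) in WT. Stard4 in WT passed the test without WT_RT replicate 2 (adjusted p = 0.0298).

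Of the genes of efflux, receptor degradation and esterification, 1 of 4 fell and none rose in the cold in KO, and 3 fell and 1 rose in WT. The shares of all tested genes were 31.7% lower and 27.5% higher in KO, and 30.2% lower and 26.2% higher in WT. Abca1, which passes cholesterol and phospholipid to lipid-poor apolipoproteins, lies at chr4:53030787-53159895. It had 56.6, 55.1, 52.6, 48.2 and 50.8 CPM in KO_cold, 162, 215, 153, 184 and 182 CPM in KO_RT, 79.2, 85.7, 129, 192 and 161 CPM in WT_cold and 222, 214, 217, 215 and 232 CPM in WT_RT. The KO_cold libraries lay within a narrow range below all 15 others, and the WT_cold libraries were spread widely, with replicates 1 and 2 lowest and replicate 4 highest but still below every WT_RT library. The change was -1.77 ± 0.18 (adjusted p = 1.79e-07) in KO and -0.77 ± 0.18 (adjusted p = 0.00125) in WT. Abcg1, which exports cholesterol to high density lipoprotein, lies at chr17:31057675-31117988 and had 6.71, 8.23, 8.62, 5.66 and 8.24 CPM in KO_cold, 6.06, 8.13, 7.34, 10.7 and 11.5 CPM in KO_RT, 7.36, 7.89, 11.6, 5.69 and 11.4 CPM in WT_cold and 11.4, 11.8, 12.6, 16.9 and 19.1 CPM in WT_RT. WT_RT had the highest values, the KO groups overlapped, and in WT 1 cold library, replicate 3, reached above the lowest RT library. The change was -0.23 ± 0.22 (adjusted p = 0.388) in KO and -0.71 ± 0.21 (adjusted p = 0.00725) in WT.

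Mylip, the ligase that marks lipoprotein receptors for degradation, had an estimate of -0.33 ± 0.14 (adjusted p = 0.0541) in KO and changed by -0.40 ± 0.14 (adjusted p = 0.0204) in WT. The Mylip call in WT was lost when WT_cold replicate 1, 2, 3 or 4 or WT_RT replicate 5 was left out, with adjusted p between 0.0515 and 0.103. In KO it passed without KO_cold replicate 1 (adjusted p = 0.0364), without KO_RT replicate 5 (adjusted p = 0.0478) and without WT_cold replicate 5 (adjusted p = 0.0388). Soat1, which esterifies cholesterol for storage, had an estimate of 0.26 ± 0.13 (adjusted p = 0.0903) in KO and changed by 0.36 ± 0.13 (adjusted p = 0.0221) in WT, at one of the lowest levels per kilobase of the set. The Soat1 call in WT was lost without WT_RT replicate 2 (adjusted p = 0.0524), and in KO it passed without KO_cold replicate 3, KO_RT replicate 3 or WT_RT replicate 4, with adjusted p between 0.0403 and 0.0450.

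**Figure D3:**
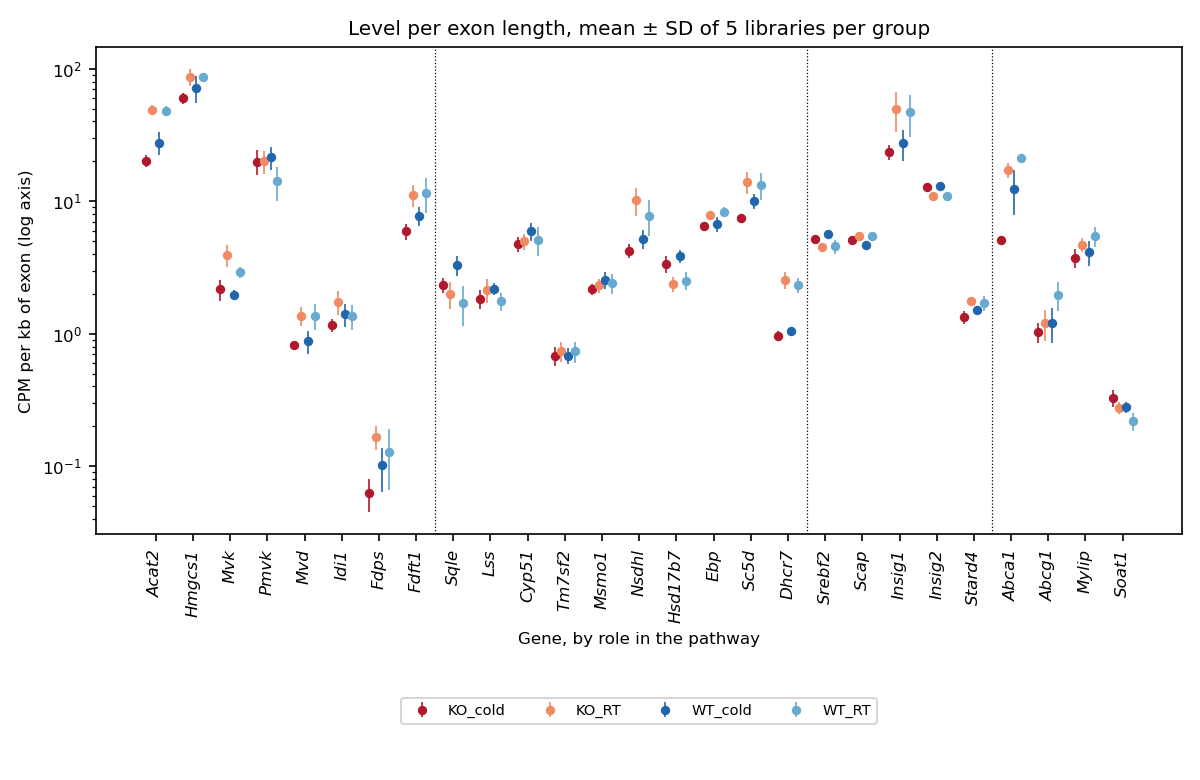
Mean level of each of the 27 genes in each group, as CPM per kilobase of exon on a log axis, with bars of ± SD over 5 libraries. Hmgcs1 is highest and Fdps lowest in every group, and Acat2, Insig1, Dhcr7 and Abca1 show the cold groups below the RT groups of the same genotype.

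Muscle markers moved with temperature in these samples. The summed level of 12 skeletal muscle markers was 43.6 to 49.0 CPM in KO_cold and 79.8 to 641 CPM in KO_RT, and 48.7 to 86.6 CPM in WT_cold and 57.0 to 1421 CPM in WT_RT. Myl1 alone was at 40.08 CPM or more in every library, so it made up most of the KO_cold sums. Every other marker of the 12 was at 1.9 CPM or less in at least 1 library. Of the 12, all fell in the cold in KO, where Ckm and Myh4 were at 0, and 11 fell in WT. When the mean of these markers was added to the fit as a term, 6 cold calls were lost in KO, with changes of -0.59 for Mvd (adjusted p = 0.0634), -0.50 for Idi1 (adjusted p = 0.119), -0.70 for Fdps (adjusted p = 0.261), -0.63 for Fdft1 (adjusted p = 0.0636), 0.39 for Hsd17b7 (adjusted p = 0.0791) and 0.20 for Srebf2 (adjusted p = 0.118). In WT 5 were lost, with changes of -0.36 for Fdft1 (adjusted p = 0.183), -0.33 for Nsdhl (adjusted p = 0.265), -0.42 for Sc5d (adjusted p = 0.0517), -0.35 for Mylip (adjusted p = 0.115) and 0.30 for Soat1 (adjusted p = 0.117). Of these 11 changes, those of Fdps in KO and of Fdft1 and Nsdhl in WT were smaller by more than 1.5 times than without the term, and that of Sc5d in WT was slightly larger. Stard4 (-0.31, adjusted p = 0.0192) and Hmgcs1 (-0.37, adjusted p = 0.0405) passed in WT with the term, and the change of Stard4 was larger by more than 1.5 times in both genotypes (-0.61 in KO). The decreases of Acat2, Mvk, Ebp, Dhcr7, Insig1 and Abca1 passed in both genotypes with that term, as did those of Hmgcs1 and Stard4. The marker mean ran from -2.34 to -1.98 log2 CPM in KO_cold and from 1.29 to 5.29 in KO_RT, with no overlap. In KO the term can therefore hardly be told apart from temperature, and a call lost there cannot be assigned to muscle. In WT the ranges overlapped, -2.26 to 1.49 in WT_cold and -2.09 to 6.32 in WT_RT. Of 10 macrophage markers, 3 were higher in the cold in KO and 2 in WT, and of 8 endothelial markers 4 were higher and 3 lower in KO and 3 higher and 3 lower in WT. Of the 8 brown adipocyte markers, 2 were higher and 5 lower in KO and 2 higher and 4 lower in WT. Their summed level was 20860 to 22930 CPM in KO_cold and 15050 to 18270 CPM in KO_RT, and 21070 to 25970 CPM in WT_cold and 15090 to 20380 CPM in WT_RT. Ucp1 (4852 to 13630 CPM over all libraries) and Fabp4 (6138 to 9618 CPM) made up most of these sums. No other marker of the 8 exceeded 1478 CPM. Of 5 lymphocyte markers, 2 were lower in KO and 3 in WT, with a summed level of at most 2.36 CPM in any library. Of the 6 fibroblast and progenitor markers, 1 was higher in KO and none passed in WT. In the same comparisons, 27.5% of all tested genes were higher and 31.7% lower in KO, and 26.2% were higher and 30.2% lower in WT. The part of these 5 marker sets in the cold changes was not tested.

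Abca1 and Acat2 were lower in KO than in WT mice in the cold, and no gene of the set passed the test between genotypes at RT. In the cold, 2 of the 27 genes were lower in KO than in WT and none was higher, where 4.19% of all tested genes were lower and 3.51% higher. The median difference of the 27 genes was -0.21, and that of all tested genes was 0.00. Abca1 was at 52.7 ± 3.35 CPM in KO_cold and 129 ± 48.4 CPM in WT_cold, 0.407 times the WT level (-1.30 ± 0.18, adjusted p = 0.000126). Acat2 was at 51.6 ± 5.54 CPM in KO_cold and 70.5 ± 13.97 CPM in WT_cold, 0.732 times the WT level (-0.45 ± 0.10, adjusted p = 0.00778). For both genes the 5 KO_cold libraries were all below the 5 WT_cold libraries, by a wide gap for Abca1 and by less than 1 CPM for Acat2. Sqle (-0.50 ± 0.19, adjusted p = 0.137) and Sc5d (-0.43 ± 0.14, adjusted p = 0.0654) also had groups that did not overlap and did not pass the test. How many of all tested genes had groups that did not overlap was not counted for any comparison. DESeq2 called 3 genes lower: Abca1, Acat2 and Sc5d (-0.44, adjusted p = 0.0215). In edgeR Sc5d passed without KO_RT replicate 2 (adjusted p = 0.0497), WT_cold replicate 4 (adjusted p = 0.0393) or WT_RT replicate 5 (adjusted p = 0.0153).

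At RT, no gene of the set differed between KO and WT by the edgeR test, where 1.38% of all tested genes were higher in KO and 1.32% lower. DESeq2 called 1 of the 27 genes higher and 1 lower. The median difference was 0.01, against 0.00 for all tested genes. Mvk was at 10.4 ± 1.97 CPM in KO_RT and 7.82 ± 0.734 CPM in WT_RT (0.42 ± 0.12, adjusted p = 0.0792) and Abcg1 at 8.76 ± 2.31 CPM in KO_RT and 14.4 ± 3.45 CPM in WT_RT (-0.71 ± 0.21, adjusted p = 0.0827). These were the genes that DESeq2 called, with an adjusted p of 0.0363 for Mvk and 0.0132 for Abcg1. Mvk also passed in edgeR without KO_RT replicate 5 (adjusted p = 0.0273). For Abca1 the difference at RT was -0.30 ± 0.18 (adjusted p = 0.505), with a 95% interval of -0.67 to 0.08. For Acat2 it was 0.03 ± 0.10 (adjusted p = 0.943), with a 95% interval of -0.19 to 0.25.

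**Figure D4:**
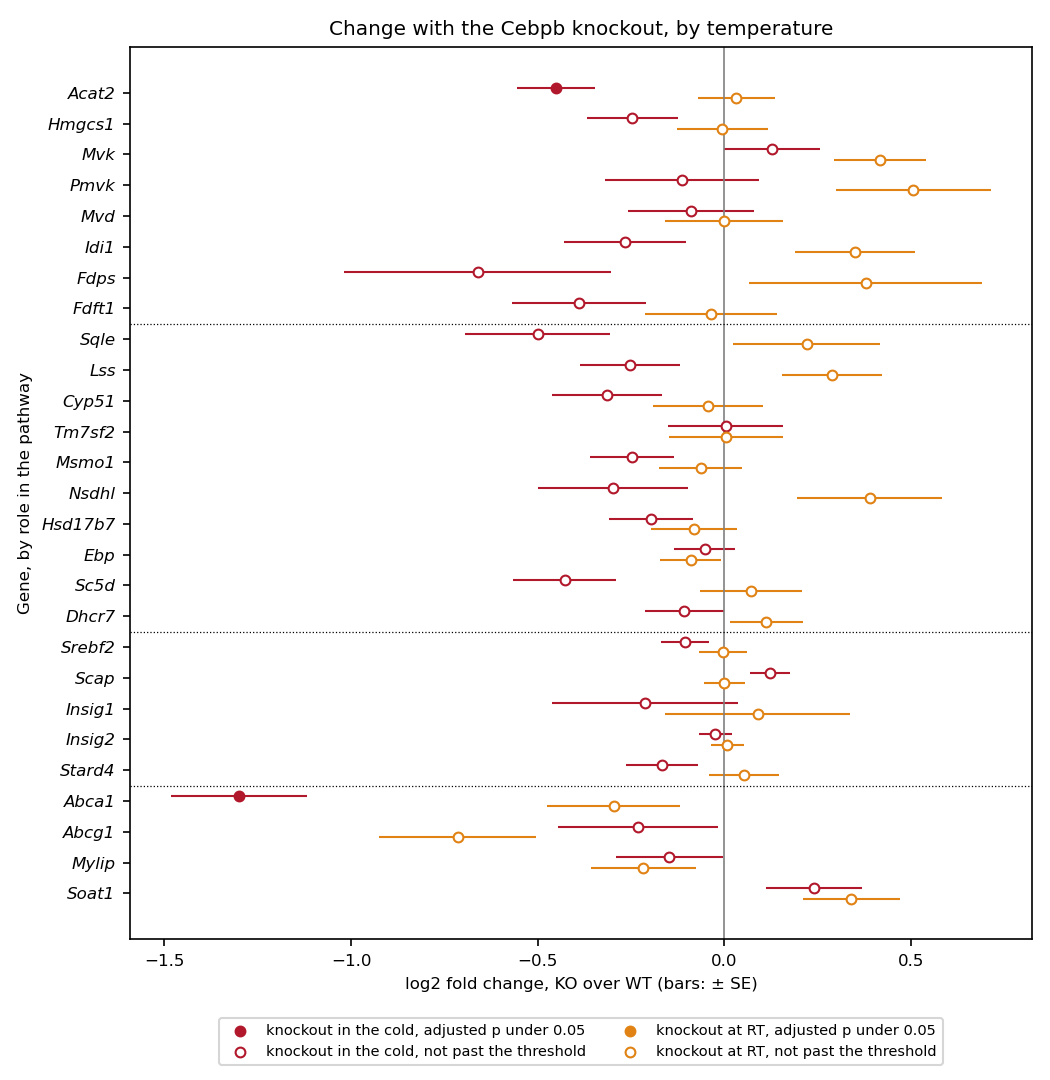
Log2 fold change of each of the 27 genes, KO over WT, in the cold and at RT, with bars of ± SE; filled points passed an adjusted p of 0.05. Abca1 and Acat2 in the cold are the filled points, and no point at RT is filled.

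**Figure D5:**
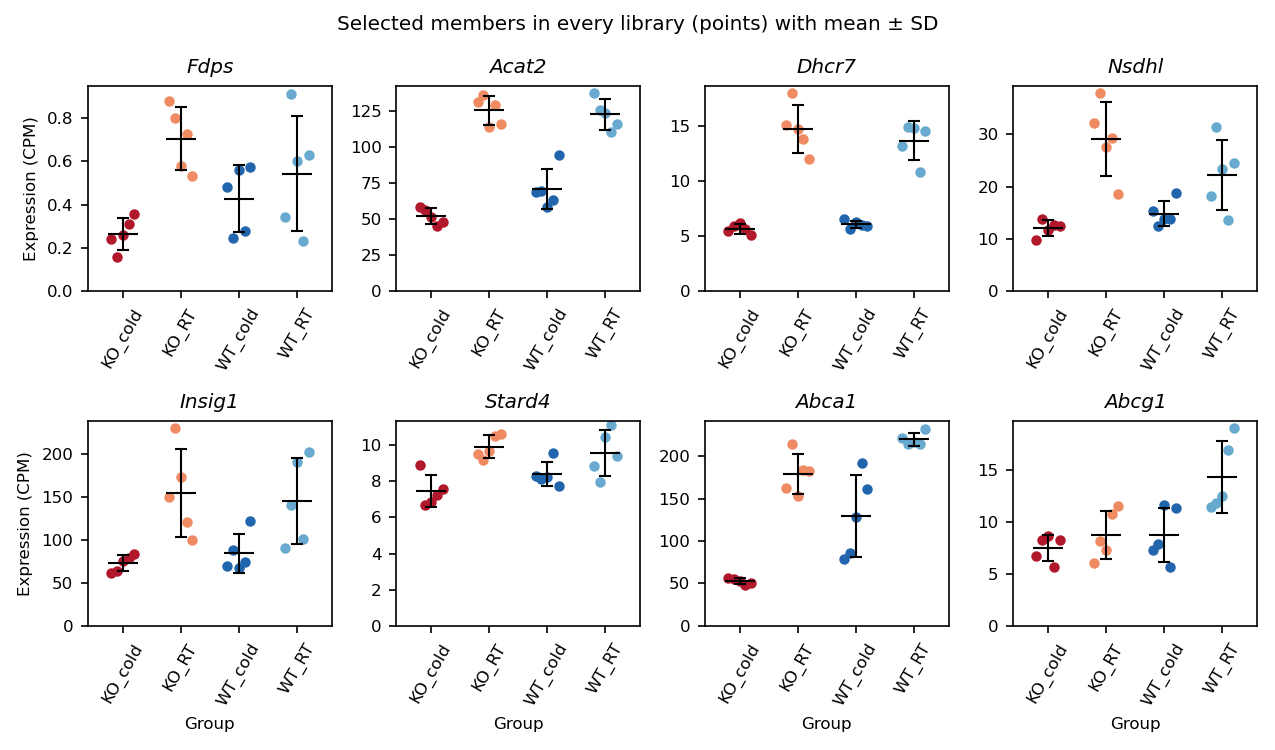
Level in CPM in each library of 8 genes, Acat2, Fdps, Dhcr7, Nsdhl, Insig1, Stard4, Abca1 and Abcg1, with 1 point per library and bars at the mean ± SD of each group. The 5 KO_cold points of Abca1 lie between 48.2 and 56.6 CPM, below all other libraries.

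The cold change itself was compared between genotypes by the interaction, the change in KO less the change in WT. None of the 27 genes passed by edgeR, where 0.427% of all tested genes were higher and 0.315% lower, while DESeq2 called 1 of the 27 lower. The median estimate was -0.24, against 0.00 for all tested genes. The largest in size were those of Fdps (-1.04 ± 0.47, adjusted p = 0.457), which rests on few reads, and Abca1 (-0.999 ± 0.25, adjusted p = 0.088), the gene that DESeq2 called (adjusted p = 0.00399). Abca1 passed in edgeR without WT_cold replicate 1 (-1.13, adjusted p = 0.0157) or without WT_cold replicate 2 (-1.12, adjusted p = 0.0291), the 2 WT_cold libraries of lowest Abca1. For Acat2 it was -0.48 ± 0.15 (adjusted p = 0.163). The WT_cold and KO_cold libraries enter both this comparison and that of the knockout in the cold.

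Markers of other cells were also set against the genotype. Of 6 fibroblast and progenitor markers, 3 (Pdgfra, Dcn and Lum) were higher in KO in the cold and 2 (Pdgfra and Dcn) at RT, with summed levels of 777 to 871 CPM in KO_cold and 643 to 887 CPM in KO_RT, against 599 to 723 CPM in WT_cold and 526 to 696 CPM in WT_RT. Of 8 brown adipocyte markers, Plin1, Pparg and Elovl3 were lower in KO in the cold, and 1 of the 8 was lower in KO at RT. The shares of all tested genes were 3.51% higher and 4.19% lower in KO in the cold, and 1.38% higher and 1.32% lower at RT. The summed level of the 8 was 20860 to 22930 CPM in KO_cold and 21070 to 25970 CPM in WT_cold. At RT it was 15050 to 18270 CPM in KO_RT and 15090 to 20380 CPM in WT_RT. Ucp1 and Fabp4 made up most of these sums. The part of the fibroblast, progenitor and brown adipocyte markers in the differences of Abca1 and Acat2 was not tested. No muscle, macrophage or endothelial marker passed the test in either genotype comparison. With the muscle markers in the fit, Abca1 (adjusted p = 0.00016) and Acat2 (adjusted p = 0.0158) remained lower in KO in the cold.

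Other genes of sterol handling were read from a list of 31, of which 29 passed the expression filter. In the cold, 6 were higher and 16 lower in KO, and 5 were higher and 13 lower in WT. Of all tested genes, 27.5% were higher and 31.7% lower in KO, and 26.2% were higher and 30.2% lower in WT. Srebf1, which encodes the SREBP that chiefly drives fatty acid synthesis, had the largest decrease in both genotypes, at 16.8 ± 2.73 CPM in KO_cold and 138 ± 51.5 CPM in KO_RT (-3.04 ± 0.30, adjusted p = 1.68e-07), and at 22.4 ± 8.21 CPM in WT_cold and 106 ± 30.1 CPM in WT_RT (-2.25 ± 0.29, adjusted p = 4.1e-06). It was followed by Aacs, which makes acetoacetyl-CoA from acetoacetate, with -2.32 ± 0.29 (adjusted p = 2.42e-06) in KO and -1.86 ± 0.28 (adjusted p = 2.68e-05) in WT. Gramd1c, a sterol carrier at membrane contacts, changed by -1.86 ± 0.19 (adjusted p = 3.31e-08) in KO and -1.65 ± 0.19 (adjusted p = 1.76e-07) in WT. Among the genes that rose in KO were Stard3, a late endosomal sterol binder (0.46), and Nr1h2, which encodes LXR beta (0.35). Among those that rose in WT were Ch25h, a cholesterol hydroxylase listed at under 0.6 CPM (1.49), and Cav1, caveolin (0.78).

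Between genotypes, 2 of these 29 genes were higher and 3 lower in KO in the cold, and 1 was higher at RT. Of all tested genes, 3.51% were higher and 4.19% lower in KO in the cold, and 1.38% were higher at RT. Cyp27a1, the mitochondrial sterol hydroxylase, was higher in KO both in the cold (0.48 ± 0.11, adjusted p = 0.00582) and at RT (0.43 ± 0.10, adjusted p = 0.0269). Erlin1, a protein of INSIG and reductase turnover, was also higher in the cold (0.39 ± 0.10, adjusted p = 0.0194). Cav1 (-0.60 ± 0.11, adjusted p = 0.000682), Vldlr, a lipoprotein receptor (-0.70 ± 0.18, adjusted p = 0.0185), and Mbtps1, the protease that first cleaves SREBPs (-0.18 ± 0.05, adjusted p = 0.0388), were lower in KO in the cold. Cav1 was at 956 ± 154 CPM in KO_cold and 1447 ± 222 CPM in WT_cold, and at 843 ± 61.1 CPM in KO_RT and 844 ± 76.8 CPM in WT_RT. None of the 29 passed the edgeR test of the interaction, where 0.427% of all tested genes were higher and 0.315% lower.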

How the data were processed

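The 20 deposited tables hold counts per gene as STAR writes them. Trim Galore 0.6.0, STAR 2.7.8a and GRCm38.p6 are named in the submitters' processing notes; the annotation release is not given in the sources used here. Per the labels' protocols, the kit was stranded, and the reverse-strand column, with 94.5% to 95.7% of stranded counts, was used. Entries that name no gene were left out: multimapping reads were 18.3% to 21.4%, unmapped 3.86% to 5.66%, outside genes 3.14% to 4.55% and ambiguous 1.02% to 1.16%. Within groups, libraries differed by 13.9 to 97.1 times counting error (chi-square per degree of freedom), so none was a copy.

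From these counts, genes were kept by filterByExpr (minimum count 10, minimum total 15), scaled by TMM and fitted with edgeR 4.0.16 (R 4.3.3; robust quasi-likelihood, 4 groups, 16 residual degrees of freedom, biological coefficient of variation 15.3%). CPM uses TMM-scaled library sizes; log2 CPM used a prior count of 2. SE is the log2 change divided by the square root of F. Coordinates and exon lengths are those of GENCODE M21 (55230 of the 55471 IDs matched) and promoters those of RefSeq. The fit was also run on counts simulated from its own estimated spread, with genes changed in WT_cold only. This checks the code and not the calls made here.

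The 27 genes, the lists and the alternatives were chosen with earlier results of these data known. Library values are given for genes called between genotypes and for the pair of largest cold change in each role; those of Sqle and Hsd17b7 were added after their values were seen. Of the other listed genes, 1 that the naming rule selects is not reported here. Alternatives were RLE scaling, no filter, DESeq2 1.42.0, both strands, a block for replicate number, a fit limited to the compared groups, a muscle marker term, each library left out, and both intermediate WT libraries left out.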

Additional observations from a re-analysis of the deposited data

Results flagged for a closer look

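In 3 of the 108 sets of 5 libraries checked (27 genes in 4 groups), 1 library lay far from the others of its group by Dixon's test, whose critical value for 5 samples is 0.71. Chance flags about 1 in 20 such sets. Fdft1 was at 42.26 CPM in WT_cold replicate 4, with the next library at 31.89 CPM and the lowest at 28.83 CPM. Sqle was at 23.63 CPM in the same library, with the next at 17.82 CPM and the lowest at 15.87 CPM. Sc5d was at 90.66 CPM in WT_RT replicate 5, with the next at 61.31 CPM and the lowest at 54.89 CPM.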

How the results depend on the processing

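Of the 135 gene results (27 genes in 5 comparisons), 38 passed the test; 25 of these passed in every alternative tried, 13 were lost in some and none reversed, while 11 results that had not passed did so in some. The lower Abca1 level in KO in the cold ranged from -1.43 to -1.11 on the log2 scale (adjusted p from 3.38e-12 to 0.0117), and that of Acat2 from -0.51 to -0.32 (adjusted p from 0.000704 to 0.0494). DESeq2 called 1 gene higher (Mvk) and 1 lower (Abcg1) in KO at RT, 1 lower for the interaction (Abca1), Sc5d as a gene lower in KO in the cold (3 in all) and Lss as one higher in WT cold (0.34, adjusted p = 0.0277). Fitting only the groups compared raised the genes lower in KO in the cold to 4, adding Sqle (adjusted p = 0.0229) and Sc5d (adjusted p = 0.00982). The muscle marker term lowered the genes higher in the cold in KO to 1 and brought Hmgcs1 and Stard4 past the threshold in WT cold. Without an expression filter, Nsdhl, Sc5d, Mylip and Soat1 were lost in WT cold, with adjusted p between 0.0539 and 0.0611. Without both intermediate WT libraries, Pmvk in WT cold was lost (0.43, adjusted p = 0.093) and Hmgcs1 passed (-0.36, adjusted p = 0.00533). The cause of these shifts was not tested.

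Leaving out 1 library at a time, the genes higher in the cold numbered 3 to 4 in KO and 5 to 7 in WT, and those lower 14 to 15 in KO and 10 to 14 in WT. Those lower in KO in the cold numbered 2 to 3, those higher in KO at RT 0 to 1, and those lower for the interaction 0 to 1. Libraries that share a replicate number did not deviate together: the correlation over 30 pairs ran from -0.18 to 0.27, with 7 above 0.1, and 6 of the 20 libraries correlated best with their own number. With the replicate number as a block, 1 gene, Abcg1, was lower in KO at RT (adjusted p = 0.035), Hmgcs1 (-0.31, adjusted p = 0.0143) and Lss (0.31, adjusted p = 0.0131) passed in WT cold, and the other counts of genes stayed within 1.5 times.

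Fdps had 4 to 39 counts per library, so its changes rest on few reads. Intervals cover the spread between libraries only.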
